A study of Solanum pimpinellifolium and Solanum chilense with 12 samples.

Results

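The genes described here are nuclear genes for the light reactions and carbon fixation of photosynthesis: chlorophyll a/b binding proteins, small subunits of Rubisco, subunits of photosystems I and II, and plastocyanin. They were taken as a list of 48 tomato gene IDs, of 34718 genes with values, and the rule behind the list uses no expression value. The sources used here do not pair a single ID with its family, so each gene is named by its ID and the list is treated as a single group. The samples were styles, with stigmas, of self-compatible (SC) Solanum pimpinellifolium LA1585 and self-incompatible (SI) Solanum chilense LA0130. Styles were left unpollinated (UP) or self-pollinated (P), and all were taken at 24 h. RNA-seq was done on 12 libraries, 3 each of SCUP, SCP, SIUP and SIP, and the labels name no other treatment and no genetic change. Each species was a single accession, so a difference between the species cannot be told apart from a difference between these accessions. Pollinated styles can hold pollen and pollen tubes, whose RNA cannot be told apart from that of the style.

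Chlorophyll a/b binding proteins hold the antenna pigments of the thylakoid membrane and pass light energy to the photosystems. Photosystem II takes electrons from water, plastocyanin carries electrons to photosystem I, and the small subunit forms with the plastid-encoded large subunit the enzyme Rubisco, which fixes carbon dioxide. These proteins are encoded in the nucleus, often by several similar genes, are made as precursors and are imported into plastids. Their genes are known for high transcript levels in green leaves and for control by light and by the circadian clock.

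The depth was 10174283 to 14499207 reads on genes per library. The ratio of reads on genes to high-quality read pairs was lower for SI (72.6% to 74.7%) than for SC (85.2% to 88.0%); these reads and pairs are not counted in the same way, so the ratio is not a share of pairs. Levels are given in RPKM, a unit scaled by gene length and by library. A comparison of levels between genes rests on the gene lengths, which for Solyc06g063370 the values imply to be only 159 bases. The SCUP library of replicate 2 (SCUP2) stood apart in these genes, as described below, and results that rest on it are given with and without it. Tissue identity was not checked against marker genes, because the IDs could not be paired with gene names. The bulk values do not separate fewer cells of a type from less RNA per cell.

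Transcripts of the list were found in styles of both species, and their summed level was higher in SI. The 48 genes summed to 5722, 2120 and 4764 RPKM in SCUP, and to 3221, 3351 and 2236 RPKM in SCP. The sums were 9843, 8055 and 9662 RPKM in SIUP, and 6465, 8206 and 8704 RPKM in SIP. Every SI library was above every SC library, while the UP and P libraries overlapped within each species. In SC the overlap came from SCUP2 alone, at 2120 RPKM, and the other SCUP sums lay above all SCP sums. Of all reads on genes, those on the 48 genes made up 0.194% to 0.488% in SC and from 0.511% to 0.790% in SI.

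The levels covered a wide range. A mean of at least 100 RPKM was reached by 13 of the 48 genes in SCUP, 10 in SCP, 20 in SIUP and 19 in SIP, and a mean of at least 1 RPKM by 35, 33, 41 and 43. The 5 highest genes held 52.7% of the summed RPKM in SCUP, 54.3% in SCP, 48.8% in SIUP and 49.8% in SIP, so a few genes made up much of the signal in each group. At the other end, Solyc02g071030 and Solyc05g056070 were at 0 in all 12 libraries. A count of 0 allows up to 3 reads, and this limit covers counting error only. Another 4 genes, Solyc03g005790, Solyc06g069000, Solyc06g069730 and Solyc02g085950, were too low for any test and reached at most 2.26 RPKM in a library.

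**Figure D1:**
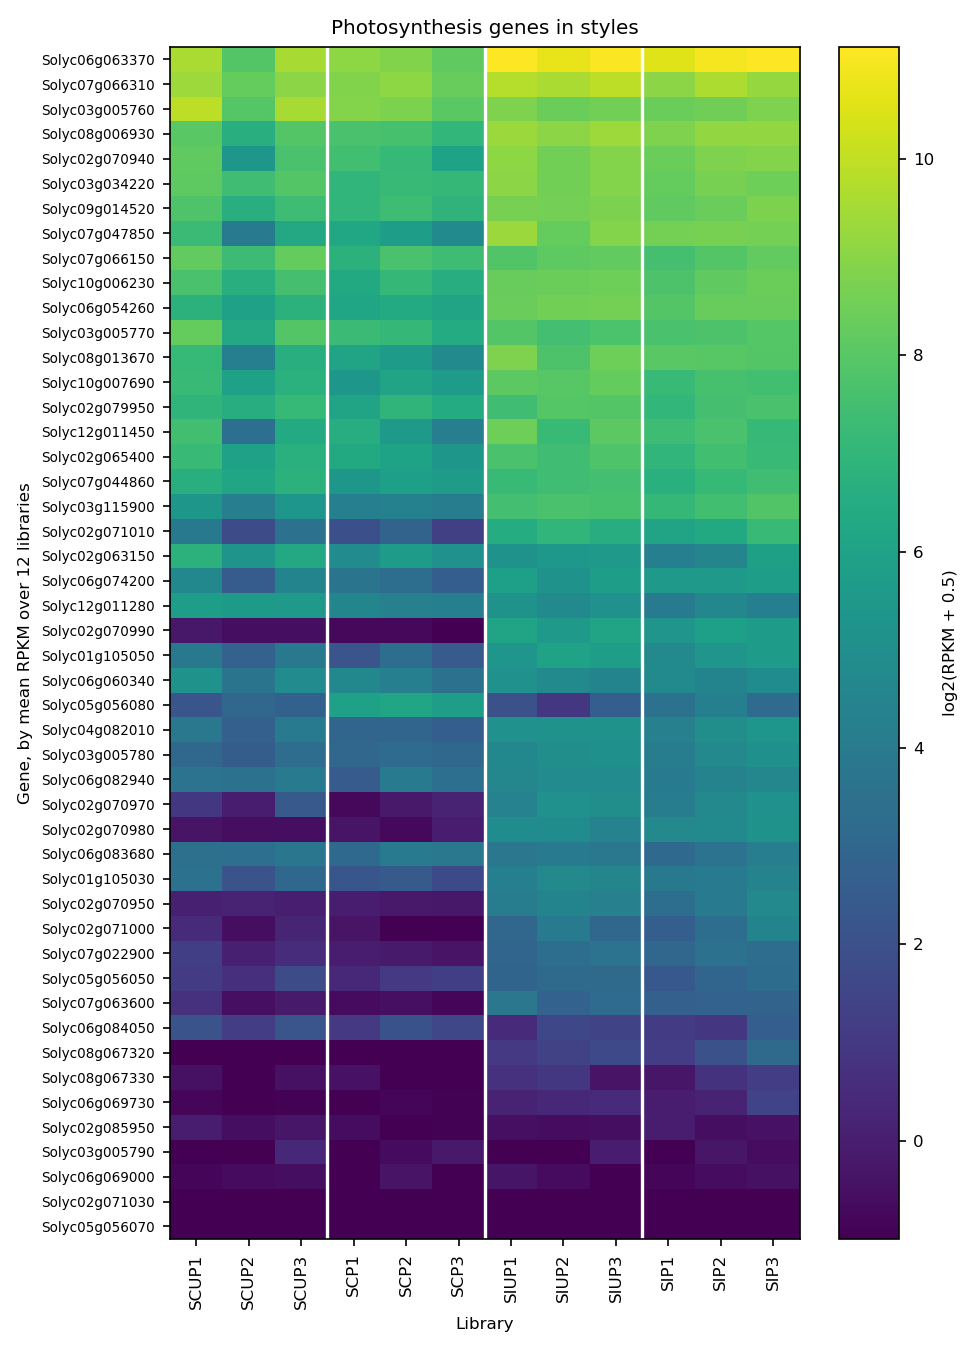
Level of each of the 48 genes (vertical axis, ordered by mean RPKM over the 12 libraries) in each library (horizontal axis, white lines between the groups), coloured by log2(RPKM + 0.5). The SI libraries are brighter for most genes, SCUP2 and SCP3 are darker than the other libraries of their groups for many genes, and Solyc05g056080 is brightest in the 3 SCP libraries.

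The gene with the highest mean was Solyc06g063370. Its SCUP values were 768, 236 and 750 RPKM, and its SCP values 548, 457 and 287 RPKM. In SIUP it was at 2259, 1735 and 2176 RPKM, and in SIP at 1514, 1985 and 2209 RPKM. All 6 SI values lay above all 6 SC values, and the UP and P values overlapped in both species. In SC this overlap came from SCUP2 alone, and the other SCUP values lay above all SCP values. Solyc06g063370 ranked 37 among all genes in SIUP and 40 in SIP by mean RPKM, and made up 22.4% of the summed level of the list in SIUP. These places rest on a short gene length, as the values imply only 159 bases. By reads it was not the highest: it had 4185 reads in SIUP1, against 14989 for Solyc03g034220, with an implied length of 2448 bases.

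The second highest was Solyc07g066310, which was at 655, 313 and 524 RPKM in SCUP and at 460, 535 and 320 RPKM in SCP. It was at 898, 782 and 973 RPKM in SIUP and at 530, 791 and 587 RPKM in SIP. The SIUP values lay above the SCUP values, while the SIP values overlapped those of SCP and of SIUP. In SCUP the highest mean was that of another gene, Solyc03g005760, with 15.5% of the summed level against 13.9% for Solyc06g063370 and 11.8% for Solyc07g066310.

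The replicates of SCUP, SCP and SIP were further apart in these genes than in the typical gene, most of all in SCUP. Over the 33 genes that could be tested in both species, the highest library of a group was a median of 2.42 times the lowest in SCUP, 1.83 times in SCP, 1.30 times in SIUP and 1.50 times in SIP. Over all genes these medians were 1.42, 1.49, 1.34 and 1.36. SCUP2 was the lowest SCUP library for 31 of the 33 genes, against 52.4% of all genes. Its level was 0.0792 to 1.47 times the mean of the other SCUP libraries, with a median of 0.452, and 20 of the 33 genes were below 0.5 times. SCP3 was the lowest SCP library for 20 of the 33 genes, against 26.4% of all genes, with a median ratio of 0.804. SIP1 was the lowest SIP library for 27 of the 33, against 28.3% of all genes, with a median ratio of 0.745 and a range of 0.452 to 1.06.

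The genes did not take part equally in the low SC libraries. The genes named here were chosen after their values were seen. Solyc12g011450 was at 175, 10.3 and 84.6 RPKM in SCUP and at 95.3, 47.2 and 17.6 RPKM in SCP. Solyc07g047850 was at 157, 16.3 and 78.9 RPKM in SCUP and at 77.2, 53.7 and 26.2 RPKM in SCP. Solyc08g013670 was at 141, 18.6 and 96.9 RPKM in SCUP and at 68.6, 50.02 and 26.5 RPKM in SCP. In all 3, SCUP2 was lower than every SCP library. The ratio of SCUP2 to the other SCUP libraries was 0.0792, 0.138 and 0.156 for these genes, against 0.870 for Solyc06g083680 and 0.956 for Solyc12g011280. Across the 33 genes, those with a lower ratio in SCUP2 also had a lower ratio in SCP3, with Pearson's r of 0.81 and Spearman's rho of 0.80. The other pairs of libraries compared in this way, each against its own group, gave r of -0.41 for SCUP2 and SIP1, 0.24 for SCUP2 and SIUP2, 0.44 for SCP3 and SIUP2 and -0.67 for SIUP2 and SIP1. The points are genes of the same libraries and are not independent replicates, so no p is given. Over all genes tested in SC, log2 deviations of SCUP2 and SCP3 from their group means had a correlation of 0.35. Other pairs reached such values too, with 0.36 for SCUP1 and SCP1, 0.36 for SIUP2 and SIP3 and -0.38 for SCUP2 and SCP1. Deviations from a group mean sum to 0 over the libraries of the group, so these values are not independent. Over all genes the pair of SCUP2 and SCP3 therefore did not stand out. The labels do not mark SCUP2 or SCP3 as a batch, and the part of any technical or biological difference between styles was not tested.

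**Figure D2:**
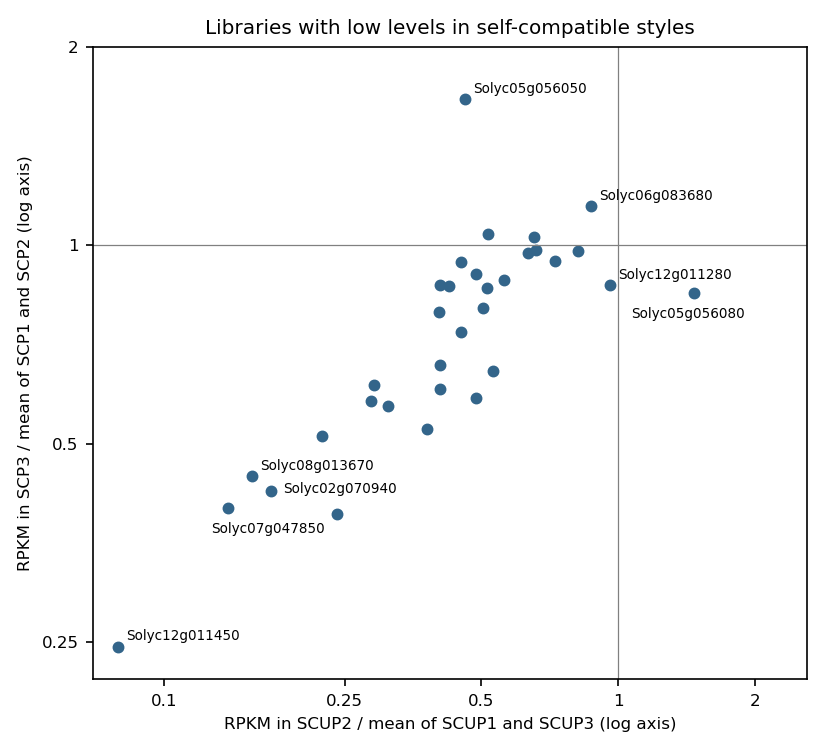
Each point is a gene (n = 33), with the ratio of its RPKM in SCUP2 to the mean of SCUP1 and SCUP3 on the horizontal axis and that of SCP3 to the mean of SCP1 and SCP2 on the vertical axis, both on a log axis. Solyc12g011450 is lowest on both, and most points lie below 1 on both, while Solyc12g011280 and Solyc05g056080 lie nearer to 1 or above it on the horizontal axis.

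In unpollinated styles most of the tested genes were higher in SI than in SC. Of 41 genes tested, 30 were higher in SIUP than in SCUP, 1 was lower and 10 were not called (limma on log2(RPKM + 0.5), adjusted p under 0.05 over all genes tested). The other 7 genes did not reach the filter, which asks for 1 RPKM or more in 3 or more of the 6 libraries. Of all genes tested, 52.0% were called in this comparison, 28.1% higher and 23.9% lower, against 73.2% of the 41 genes called higher. The median log2 difference was 1.70, which is 3.24-fold, against 0.13 for all genes tested. Of the genes called higher, 26 were at least 2-fold higher. Values of the groups did not overlap for 32 genes with SIUP higher and for 1 gene with SIUP lower, where 35.9% and 27.5% of all genes showed this.

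Genes that are high in SI only could pass the filter through SI alone, so these counts describe the genes that passed and not all 48. Among the genes called higher, this held for 5 that were below 1 RPKM in every SCUP library: Solyc02g070950, Solyc02g070980, Solyc02g070990, Solyc02g071000 and Solyc08g067320. It also held for Solyc02g070970, Solyc07g022900 and Solyc07g063600, which reached 1 RPKM in fewer than 3 SCUP libraries. The counts of genes called higher, at least 2-fold higher and not overlapping include all of these genes, whose calls are descriptions only. Without SCUP2, 34 of 41 genes were called, 31 higher and 3 lower, and the median log2 difference was 1.12. Over all genes, 8373 of 18082 were called in that fit, 4823 higher and 3550 lower. With each SIUP library left out in turn, 22, 23 and 21 of the listed genes were called of 36 tested. In each of these fits 5 of the genes no longer called were below the filter. Calls over all genes were then 8731 of 18462, 7508 of 18447 and 6617 of 18449. The lower ratio of reads on genes to read pairs in SI stands beside this comparison. How well the transcripts of each gene of S. chilense align to the tomato genome is not known here, and the part of alignment in the difference was not tested.

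**Figure D3:**
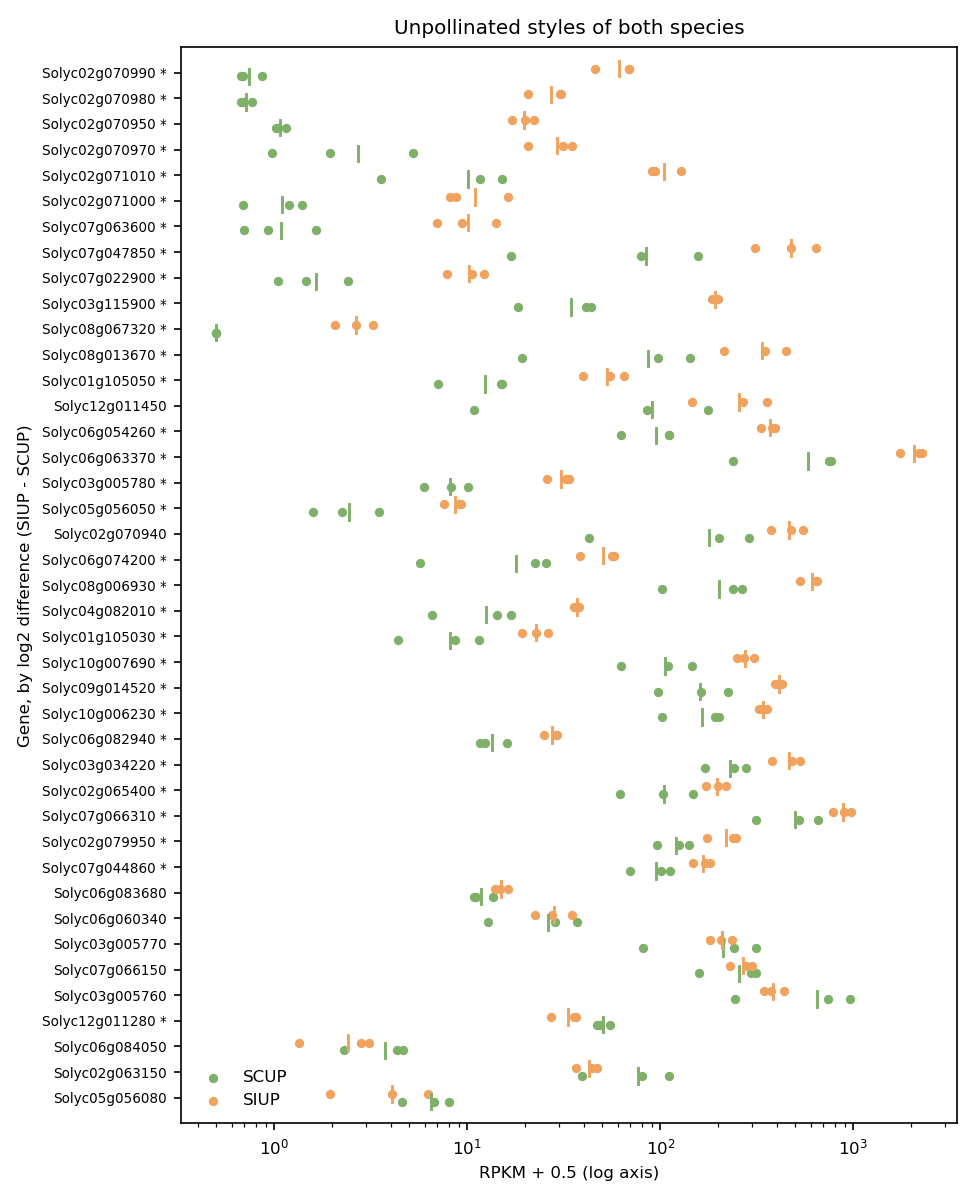
Level of each of the 41 genes tested in unpollinated styles, ordered by the log2 difference, with RPKM + 0.5 on a log axis. Points are the 3 libraries of each species, vertical bars their mean, and an asterisk marks the 31 genes called; the SIUP points lie to the right of the SCUP points in 32 genes.

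The difference for Solyc06g063370 was 1.99 on the log2 scale (SE 0.45, n = 3 and 3, limma adjusted p = 0.00875). For Solyc07g066310 it was 0.89 (SE 0.28, limma adjusted p = 0.0314). Both differences were called, but that of Solyc07g066310 was lost with SCUP3 or any of the SIUP libraries left out (limma adjusted p from 0.0571 to 0.106). Solyc03g005760, the highest gene of SCUP, was at 965, 243 and 741 RPKM there and at 438, 343 and 372 RPKM in SIUP. Its difference of -0.54 was not called (limma adjusted p = 0.368), and its SCUP2 value lay below all SIUP values while the other SCUP values lay above them. Without SCUP2 it was -1.14 and Solyc03g005760 was called lower in SIUP (limma adjusted p = 0.00395). The remaining genes not called were Solyc02g070940, Solyc12g011450, Solyc03g005770, Solyc02g063150, Solyc06g083680, Solyc07g066150, Solyc06g060340, Solyc06g084050 and Solyc05g056080, with log2 differences from -0.78 to 2.14. The large differences among these were those of Solyc12g011450, at 2.14 (limma adjusted p = 0.0955), and Solyc02g070940, at 1.76 (limma adjusted p = 0.0559), both with a low SCUP2. Without SCUP2 the difference of Solyc02g070940 was 0.93 and called (limma adjusted p = 0.0188), that of Solyc12g011450 was 0.98 and not called (limma adjusted p = 0.128), and that of Solyc02g063150 went from -0.74 to -1.16 and was called lower (limma adjusted p = 0.00494). Without SCUP1 both Solyc02g070940 and Solyc12g011450 were called higher.

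With all libraries, only Solyc12g011280 was called lower in SIUP among the 41 genes. It was at 54.6, 48.2 and 46.2 RPKM in SCUP and at 35.9, 26.6 and 35.3 RPKM in SIUP, with no overlap. The log2 difference was -0.61 (SE 0.16, limma adjusted p = 0.0160), and without SIUP2 it was -0.47 and no longer called (limma adjusted p = 0.0542).

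In SC styles 9 of the genes tested in SI were too low to be tested for a response. The 9 were Solyc02g070950, Solyc02g070970, Solyc02g070980, Solyc02g070990, Solyc02g071000, Solyc07g063600, Solyc07g022900, Solyc08g067320 and Solyc08g067330. For example, Solyc07g063600 was between 0.0641 and 1.14 RPKM in the 6 SC libraries and between 6.08 and 13.5 RPKM in the 6 SI libraries. Solyc07g022900 was between 0.267 and 1.91 RPKM in SC and between 7.33 and 11.7 RPKM in SI. The ranges of the species did not overlap for either gene. Solyc08g067320 was at 0 in all SC libraries and at 1.55, 2.16 and 2.73 RPKM in SIUP, which is at least 2.75-fold higher against a floor of 3 reads in each SCUP library. With this gene set to that bound the median log2 difference of the 41 genes was 1.67.

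In tomato gene IDs the digits after Solyc give the chromosome and the last digits the order along it. By their IDs 19 of the 48 genes fell into 5 runs of close neighbours. In the runs on chromosomes 2 and 3 the species differed in how the level was shared between the genes. The runs were taken from the IDs alone, and no source used here gives how reads that match several similar neighbours were counted, so values of single genes in a run are uncertain. The 8 genes from Solyc02g070940 to Solyc02g071030 on chromosome 2 summed to 46.9 to 306 RPKM in SCUP and to 646 to 781 RPKM in SIUP. In SC nearly all of this was Solyc02g070940, which held 89.8% to 94.1% of the SCUP sum and 94.7% to 97.4% of the SCP sum. It held 57.5% to 70.3% in SIUP and 59.7% to 67.5% in SIP, and the rest of the run was far higher than in SC. Without Solyc02g070940 the run summed to 4.77 to 18.1 RPKM in SCUP, 3.46 to 7.76 RPKM in SCP, 232 to 275 RPKM in SIUP and 166 to 318 RPKM in SIP.

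The largest difference between the species among the 41 genes was that of Solyc02g070990, a gene in the middle of this run. It was at 0.359, 0.187 and 0.173 RPKM in SCUP, from 4, 2 and 2 reads, and at 0.0953, 0.0969 and 0 RPKM in SCP. It was at 67.9, 45.4 and 68.6 RPKM in SIUP and at 39.8, 56.8 and 51.8 RPKM in SIP. The species did not overlap, with 10 reads over the 6 SC libraries and 3008 over the 6 SI libraries. The log2 difference at baseline was 6.35 (SE 0.22). Being below 1 RPKM in every SCUP library, this gene reached the filter only through SIUP, where it is high, so no p is given, and with any of the SIUP libraries left out it was not tested. A difference on the log2(RPKM + 0.5) scale understates the change of a gene this low, and this value was 7.50 with a pseudocount of 0.1 and 5.61 with a pseudocount of 1.

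Solyc02g070970, of the same run, was at 1.44, 0.468 and 4.75 RPKM in SCUP and at 0.0953, 0.388 and 0.637 RPKM in SCP. It was at 20.1, 34.4 and 31.0 RPKM in SIUP and at 16.8, 26.0 and 34.7 RPKM in SIP. The SI values were all above the SC values, and at baseline the log2 difference was 3.72 (SE 0.57). In SCUP only SCUP1 and SCUP3 reached 1 RPKM, so this gene passed the filter only with SIUP, where it is high, and no p is given. Solyc02g071010 was called, with a difference of 3.59. The differences of 5.23 for Solyc02g070980, 4.19 for Solyc02g070950 and 3.32 for Solyc02g071000 are given as descriptions. Like Solyc02g070990, these genes were below 1 RPKM in every SCUP library and reached the filter only through SIUP. They were not tested with any SIUP library left out.

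In the run on chromosome 3 the highest genes kept a nearly fixed ratio within each species. The level of Solyc03g005760 was 2.98 to 3.15 times that of Solyc03g005770 in the 6 SC libraries, with a mean of 3.08 ± 0.065 (SD, n = 6). In the 6 SI libraries it was 1.69 to 1.91 times, with a mean of 1.80 ± 0.082 (SD, n = 6). The ranges did not overlap, and the ratio in SC held across a range of 243 to 965 RPKM of Solyc03g005760, SCUP2 included. The neighbour Solyc03g005780 was at 7.76, 5.48 and 9.52 RPKM in SCUP and at 25.3, 31.8 and 33.2 RPKM in SIUP, and was called higher (log2 difference 1.94, SE 0.22, limma adjusted p = 0.000445). For Solyc01g105050 against Solyc01g105030 the ratio ranged over 0.966 to 1.99 in the SC libraries and over 1.80 to 2.64 in the SI libraries, with overlap.

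After self-pollination in SC, Solyc05g056080 rose and Solyc12g011280 fell, and the other 31 of the 33 genes tested were not called in SCP vs. SCUP. The 2 called genes were 6.06% of those tested, and 6.89% of all genes tested were called, 4.66% higher and 2.23% lower. An unadjusted p under 0.05 was found for 5 of the 33 genes, which is 15.2%, against 27.7% of all genes. The log2 difference was below 0 for 30 of the 33, against 61.3% of all genes, and the median was -0.49 against -0.12 for all genes. Values did not overlap for 1 gene with SCP higher and 3 genes with SCP lower, where 13.2% and 23.1% of all genes showed this.

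SCUP2 bears on this comparison directly. Without it 7 genes were called, the same 2 and falls of Solyc03g034220, Solyc03g115900, Solyc04g082010, Solyc07g044860 and Solyc10g007690 (limma adjusted p from 0.0219 to 0.0447), and the median log2 difference was -1.0. The log2 differences of these 5 without SCUP2 were from -0.93 to -1.26, and with it from -0.71 to -0.92 and none was called. Over all genes, 1213 of 18650 were called without SCUP2, 688 higher and 525 lower. The fall of the listed genes was smaller with other libraries of SCUP left out. Without SCUP1 the median was -0.26 and 23 of 33 genes were below 0, and without SCUP3 these were -0.28 and 28. Without SCP1, SCP2 or SCP3 the median was -0.64, -0.65 or -0.35, with 29, 31 or 25 genes below 0. With SCUP2 kept, Solyc07g044860 was called under upper-quartile scaling and under quantile normalization (limma adjusted p = 0.0453 and 0.0400), which made 3 genes called. With the low SCUP2 among the controls, the values of Solyc10g007690 were 146, 61.9 and 109 RPKM in SCUP and 42.9, 66.7 and 49.7 RPKM in SCP. Without that library all SCP values of this gene lay below the SCUP values. For Solyc06g063370 the log2 difference with all libraries was -0.31 (SE 0.50, limma adjusted p = 0.743), and for Solyc07g066310 it was -0.15 (SE 0.33, limma adjusted p = 0.818).

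Solyc05g056080 was at 4.07, 7.56 and 6.24 RPKM in SCUP (5.96 ± 1.76, SD, n = 3) and at 61.0, 71.9 and 56.3 RPKM in SCP (63.1 ± 7.98, SD, n = 3). The groups were far apart, with a mean in SCP 10.6 times that in SCUP. By mean RPKM it moved from rank 13642 of all genes in SCUP to rank 3114 in SCP. The log2 difference was 3.33 (SE 0.24, limma adjusted p = 0.00379), and it was called under all 16 alternatives, with adjusted p from 0.000475 to 0.0254. In SI it was at 3.55, 1.44 and 5.78 RPKM in SIUP and at 11.2, 18.7 and 9.07 RPKM in SIP. These groups did not overlap either, but the log2 difference of 1.81 (SE 0.46) was not called (limma adjusted p = 0.0745, and 0.0405 to 0.185 under the 16 alternatives). Of its neighbours by ID, Solyc05g056050 was at 1.73, 1.08 and 2.96 RPKM in SCUP and at 0.768, 1.53 and 1.91 RPKM in SCP, with overlap, and Solyc05g056070 was at 0.

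Solyc12g011280 was at 54.6, 48.2 and 46.2 RPKM in SCUP (49.7 ± 4.38, SD, n = 3) and at 23.1, 18.8 and 18.3 RPKM in SCP (20.1 ± 2.66, SD, n = 3). The groups did not overlap, and the mean in SCUP was 2.47 times that in SCP. The log2 difference was -1.29 (SE 0.16, limma adjusted p = 0.00997), and it was called under all 16 alternatives, with adjusted p from 0.00122 to 0.0493. In SI it was at 35.9, 26.6 and 35.3 RPKM in SIUP and at 15.1, 24.1 and 18.2 RPKM in SIP. There too the groups did not overlap, and the log2 difference of -0.77 (SE 0.20) was not called (limma adjusted p = 0.0822, and 0.0566 to 0.281 under the alternatives).

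**Figure D4:**
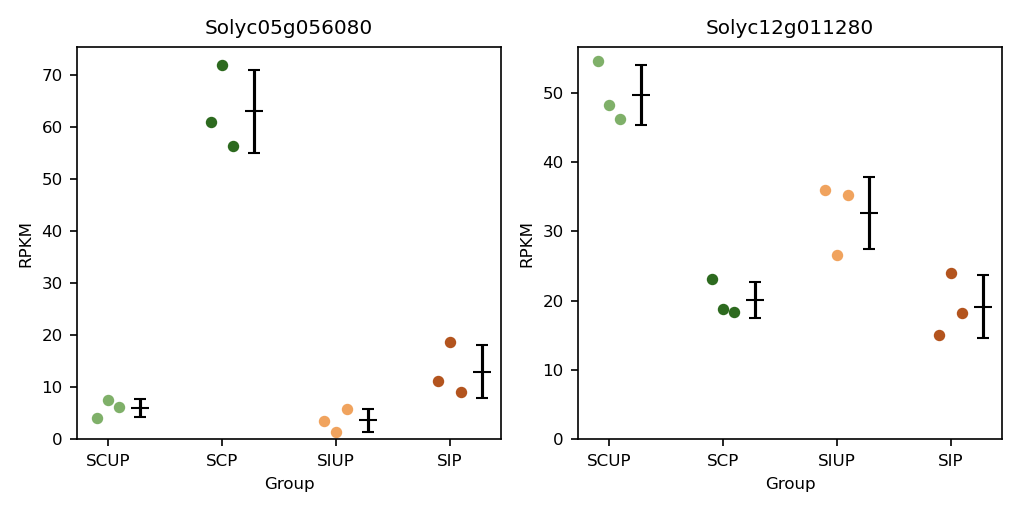
RPKM of Solyc05g056080 (left) and Solyc12g011280 (right) in the 4 groups; points are libraries, and the bars beside them give the mean ± SD (n = 3). Solyc05g056080 is at 56.3 to 71.9 RPKM in SCP and at most 18.7 RPKM in the other groups, and Solyc12g011280 is lower in the pollinated than in the unpollinated libraries of both species.

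After self-pollination in SI, 0 of the 42 genes tested were called in SIP vs. SIUP, where limma called 3.65% of all genes, 2.50% higher and 1.15% lower. An unadjusted p under 0.05 was found for 7 of the 42, which is 16.7%, against 26.6% of all genes, and limma with voom weights on recovered reads also called 0. The log2 difference was below 0 for 35 of the 42, against 62.8% of all genes, and the median was -0.24 against -0.11 for all genes. Values did not overlap for 1 gene with SIP higher and 4 with SIP lower, where 11.2% and 20.8% of all genes showed this. The 4 were Solyc12g011280, Solyc10g007690, Solyc06g054260 and Solyc06g082940. Without SIP1, the lowest SIP library, the median was -0.053 and 24 of the 42 genes were below 0.

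The smallest adjusted p was that of Solyc10g007690, at 269, 250 and 306 RPKM in SIUP and at 146, 197 and 176 RPKM in SIP. The SIP values lay below the SIUP values, with a log2 difference of -0.67 (SE 0.15, limma adjusted p = 0.0553). It was called under 2 of the 16 alternatives, with adjusted p from 0.0445 to 0.221. The log2 difference was -0.12 (SE 0.19) for Solyc06g063370 and -0.49 (SE 0.18, limma adjusted p = 0.144) for Solyc07g066310.

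**Figure D5:**
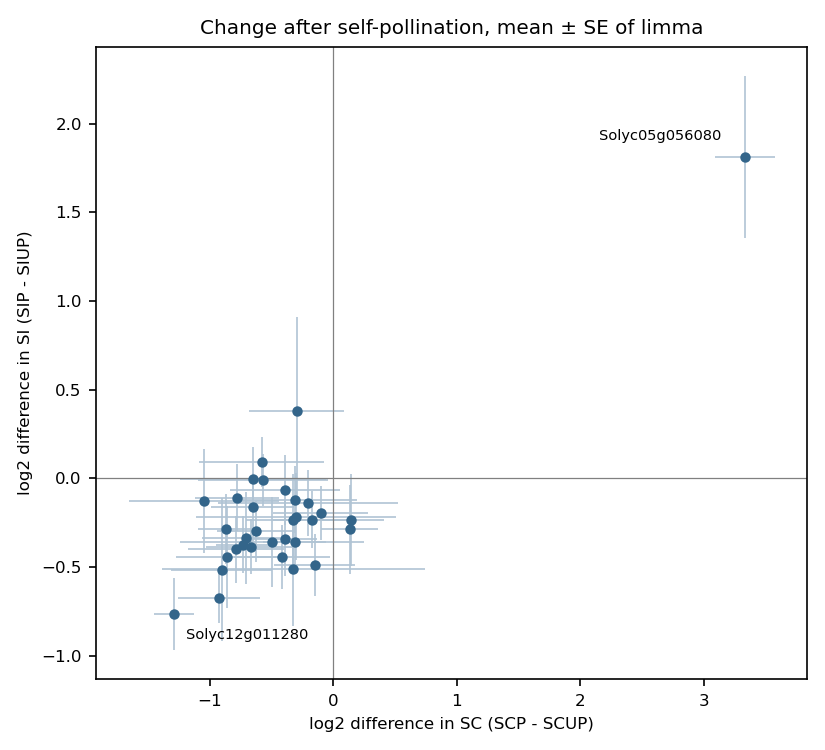
Log2 difference after self-pollination in SC (horizontal axis) and in SI (vertical axis) for the 33 genes tested in both species; bars are the SE of limma. Solyc05g056080 stands alone at the upper right, at 3.33 and 1.81, Solyc12g011280 is lowest on both axes, at -1.29 and -0.77, and most other genes lie below 0 on both axes with bars that are longer in SC.

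The difference between the responses of the species was tested as an interaction over all 12 libraries. It was called for 0 of the 42 genes, where limma called 1.04% of all genes, 0.252% higher and 0.784% lower, and limma with voom weights on recovered reads also called 0. An unadjusted p under 0.05 was found for 1 gene, Solyc05g056080, with a log2 difference of responses (SI minus SC) of -1.52 (SE 0.56, limma adjusted p = 0.283). For Solyc12g011280 it was 0.52 (SE 0.26, limma adjusted p = 0.443). So a call of these genes in SC and none in SI was not shown to be a difference between the species. The largest positive value was 1.18 (SE 0.74, limma adjusted p = 0.562), for Solyc02g070970, which was at most 4.75 RPKM in SC. The median over the 42 genes was 0.29 against 0.05 for all genes, and leaving out 1 library at a time moved it between 0.04 and 0.75.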

How the data were processed

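RNA-seq libraries of styles were grouped as SCUP, SCP, SIUP and SIP (3 each) by their deposited titles. To make the deposited RPKM values, the authors filtered reads with Trimmomatic 0.32, used TopHat2 for alignment to the genome of tomato, and scaled reads per gene by gene length and library. Neither the builds of genome and annotation nor the treatment of multi-mapping reads is given in the sources used here. A quality table deposited by the authors holds the counts of read pairs before and after filtering and the fraction kept. The log2 ratios, p-values and marks that the authors deposited per gene were not used. Left out were 7 genes with error codes and 1 line of totals.

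Tests used log2(RPKM + 0.5) of genes that reached 1 RPKM in 3 or more of the fitted libraries, with limma 3.58.1 in R 4.3.3 (empirical Bayes with intensity trend, two-sided, Benjamini-Hochberg adjustment over all genes tested, threshold 0.05). SCP vs. SCUP, SIP vs. SIUP and SIUP vs. SCUP were fitted on their 6 libraries and the difference of responses on all 12. The fit was tested on simulated data. Whole reads were recovered from the RPKM steps for 27851 genes (100% of implied gene lengths whole within 0.01 bases) and used for depth and for voom, an alternative chosen after seeing the data. Other alternatives were scaling, filter, pseudocount, trend, replicate block, a fit on all libraries and each library left out.

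The list of genes, and the rule for naming them, were chosen with earlier results of these data known. The rule named genes called in a response or in the difference of responses, the 2 highest by mean RPKM, and those with the largest and the smallest log2 difference in a comparison. Family roles, other pathway lists, markers of pollen and style, and promoter motifs were not used here, since 0 of the 48 IDs matched the reference table. The libraries are called biological replicates, but no source says which plants they came from, so p-values measure the spread between these libraries, which may be partly technical.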

Additional observations from a re-analysis of the deposited data

How the results depend on the processing

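The listed genes called in SCP vs. SCUP numbered 2 of 33 tested. With all 12 libraries in the fit they were 5 of 42, which added Solyc03g034220, Solyc07g044860 and Solyc10g007690. With upper-quartile scaling or quantile normalization they were 3 of 33, which added Solyc07g044860. Calls over all genes rose too, from 1303 of 18913 to 3674 of 20277 with all 12 libraries. They were 1584 of 18913 with upper-quartile scaling and 1596 with quantile normalization. Leaving out 1 library at a time gave 2 to 7 listed genes called, with 7 without SCUP2, and a median log2 difference of -1.0 to -0.26. In SIP vs. SIUP the count was 1 instead of 0 with quantile normalization (Solyc10g007690), 1 with all 12 libraries (Solyc05g056080, 1.81, limma adjusted p = 0.0405) and 0 to 1 with 1 library left out, with 1 without SIUP1. The median there ran from -0.39 to -0.053, the latter without SIP1. In SIUP vs. SCUP the count was 30 to 33 under the alternatives that kept all libraries and 21 to 34 with 1 left out, with a median of 1.12 to 1.94. Upper-quartile scaling moved the median of all genes in that comparison from 0.13 to 0.03 and that of the listed genes from 1.70 to 1.59, and the listed genes called higher stayed at 30. No listed gene was called for a difference of responses under any alternative run. With a replicate block the counts were 2, 0, 0 and 33 for SC, SI, the difference of responses and SIUP vs. SCUP. Whether the numbers pair the samples was not settled. Correlations of same-numbered libraries ran from -0.21 to 0.36, and those of differently numbered libraries from -0.38 to 0.36. The cause of these changes was not tested. With 3 libraries a group, an exact permutation test of a single gene cannot go below 0.1.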
